A study of Mus musculus with 4 samples.

Results

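The miR-17-92 cluster was represented by 6 of the 178 array probes, 171 of which were for miRNAs and 7 for control RNAs. The 6 were chosen by their probe IDs and not by any measured value: 2org-17-5p, 1org-20, 1org-18, 2org-19a, 1org-92 and 2org-17-3p. Earlier results of these data were known when the choice was made. No probe ID of the table matched 18a, 19b, 20a or 92a. Mouse T cells were activated and transduced with Foxp3, the factor on which regulatory T cells depend, and their RNA was set against that of activated T cells that had received a control vector. Both RNAs went together onto 2-colour miRNA arrays, 2 for 96 h and 2 for 72 h. Of each 2, the Foxp3 RNA was in Cy5 on the first (the Foxp3-Cy5 array) and in Cy3 on the second (the Foxp3-Cy3 array). Activation and transduction were thus common to both RNAs of every array. The mouse strain and age, the vector, the zero point of the times and any pooling of animals are not given in the sources used here. The arrays give ratios and no levels, so the labelled cell type could not be checked against its markers, and Foxp3 itself was not measured.

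The cluster is a single primary transcript from which the miR-17, miR-18a, miR-19a, miR-20a, miR-19b and miR-92a hairpins are cut. Myc and E2F factors are known to drive it, and its miRNAs lower the pro-apoptotic Bim, so that more of them promotes growth and survival of lymphocytes. A miRNA recognises its targets mainly through its seed, bases 2 to 8. In RefSeq (GRCm38.p6) the 6 hairpins lie within 836 bases on the plus strand of chr14:115043671-115044506.

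The mature sequences are shown because probes are compared below by shared seed and by how nearly alike their sequences are. They come from RefSeq (GRCm38.p6), 5′ to 3′, with the seed in capitals. The platform annotation listed 3 of the 6 probes (1org-18 as Mir18, 1org-20 as Mir20a and 2org-19a as Mir19a, by current symbol), and the other 3 were matched by the miRNA name or number in their ID. Only the miR-17 probe IDs name an arm, so the main arm is shown for the others.
2org-17-5p (miR-17-5p): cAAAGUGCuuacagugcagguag
1org-20 (miR-20a-5p): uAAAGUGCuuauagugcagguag
1org-18 (miR-18a-5p): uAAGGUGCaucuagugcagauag
2org-19a (miR-19a-3p): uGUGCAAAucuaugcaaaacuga
1org-92 (miR-92a-3p): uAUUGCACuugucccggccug
2org-17-3p (miR-17-3p): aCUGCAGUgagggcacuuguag
Probes of related clusters that share a seed with a member are shown for comparison.
1org-106a (miR-106a-5p): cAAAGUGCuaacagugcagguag
1org-106b (miR-106b-5p): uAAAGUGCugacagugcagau
1org-93 (miR-93-5p): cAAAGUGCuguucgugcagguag
2org-25 (miR-25-3p): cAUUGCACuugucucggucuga

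miR-17-5p and miR-20a-5p have the seed AAAGUGC in common and differ at 2 of 23 bases. miR-106a-5p, encoded on the X chromosome, differs from miR-17-5p at 1 of 23 bases, so cross-hybridisation between these probes was possible and was not tested. Mature miR-92a-3p has the same sequence from the chromosome 14 copy (Mir92-1) and from the X copy (Mir92-2), and the probe cannot tell them apart. The miR-17-5p and miR-17-3p probes read opposite arms of 1 hairpin, Mir17, at chr14:115043671-115043754 on the plus strand, shown with both mature arms in capitals.
Mir17 hairpin: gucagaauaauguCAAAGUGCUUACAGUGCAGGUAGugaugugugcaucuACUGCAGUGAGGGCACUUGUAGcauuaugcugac

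The values were log ratios of the 2 channels of each array, taken as log2, and neither the centring nor the direction of the ratio is given in the sources used here. The arrays had no common centre, with medians over the 171 miRNA probes of 1.27 (Foxp3-Cy5) and 0.02 (Foxp3-Cy3) at 96 h, and -0.59 and -0.83 in the same order at 72 h. Over these probes the correlation of the Foxp3-Cy5 with the Foxp3-Cy3 array was r = -0.12 for 96 h and r = 0.66 for 72 h, which settles no direction. Each ratio was therefore read in 2 ways. In the Cy5-over-Cy3 reading the values of the Foxp3-Cy3 arrays were multiplied by -1, and in the other reading every value was taken as already Foxp3 over control. The 2 arrays of a time point carried RNAs with the same labels and counted, averaged, as 1 replicate, so the replicates are the 2 time points (n = 2). The labels do not say that these came from separate cultures.

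As deposited, the 5 main-arm members lay on the same side of each array's median, and miR-17-3p did not follow them. All 5 were above the median of the 171 miRNA probes on 3 arrays and below it on the 96 h Foxp3-Cy5 array. On that array 1org-20 had the value ranked 4 from the lowest of 171, 2org-17-5p ranked 7, 2org-19a ranked 15, 1org-18 ranked 31 and 1org-92 ranked 36. This pattern, noticed in the data and given as a description, was held by 47 of the 171 miRNA probes (27.5%). It was also held by 4 of the 5 U6 and tRNA control probes and by 2 of 5 T cell miRNA probes (1org-142-as and 1org-155). None of the 18 probes of miRNAs that mark other cell types held it. The 96 h Foxp3-Cy5 array was also the one that stood apart, with r between -0.20 and 0.07 to each of the others over the 171 probes, while the other 3 correlated with each other at 0.66 to 0.80. The part of that array in the pattern was not tested.

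**Figure D1:**
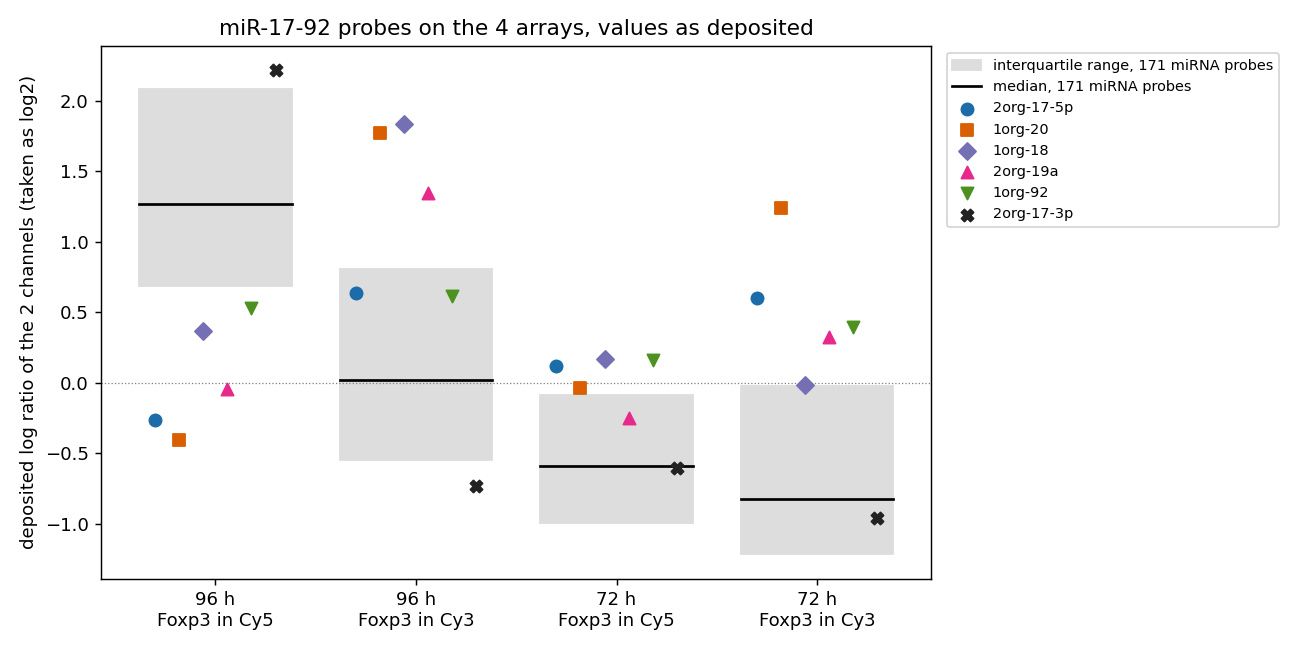
Deposited log ratio (taken as log2, vertical axis) of the 6 cluster probes on each of the 4 arrays, with the median (line) and the interquartile range (grey box) of the 171 miRNA probes. The 5 main-arm probes lie above the line on 3 arrays and below it on the 96 h Foxp3-Cy5 array, where 2org-17-3p is at 2.22.

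The probe 1org-20 for miR-20a, a miR-17 family member that restrains E2F factors, had the largest ratio of the main arms in the Cy5-over-Cy3 reading. Its deposited values were -0.41 (Foxp3-Cy5) and 1.77 (Foxp3-Cy3) at 96 h, and -0.03 and 1.24 in the same order at 72 h. The Foxp3-Cy3 arrays were the high ones at both time points, and the turned values of the time points overlapped. Turned, the ratio of Foxp3 over control was below 0 on all 4 arrays, with a log2 mean of -1.09 for 96 h and of -0.64 for 72 h. The mean over both was -0.86 ± 0.32 (SD, n = 2), or 1.82-fold lower with Foxp3, the value ranked 3 from the lowest of 171 (limma adjusted p = 0.545). Taken as already turned, the mean was 0.64 ± 0.06 (SD, n = 2; limma adjusted p = 0.998), ranked 17 from the highest.

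2org-17-5p, the founding arm of the family with the same seed, had deposited values of -0.27 (Foxp3-Cy5) and 0.64 (Foxp3-Cy3) at 96 h, and 0.12 and 0.61 in the same order at 72 h. It ran the same way as 1org-20 with a smaller gap between the dyes, and its time points overlapped. The turned mean was -0.35 ± 0.15 (SD, n = 2; limma adjusted p = 0.653), against 0.27 ± 0.12 (SD, n = 2) in the other reading. Over the 4 arrays the root mean square difference between these probes, which differ at 2 bases, was 0.66 in log2, against a median of 1.07 over all 14535 pairs of miRNA probes.

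miR-18a has a seed that differs from that of miR-17 and is known to target Smad proteins of TGF-beta signalling. Probe 1org-18 had 0.37 (Foxp3-Cy5) and 1.84 (Foxp3-Cy3) at 96 h, and 0.17 and -0.02 in the same order at 72 h. The 96 h Foxp3-Cy3 array alone was high, while the other 3 arrays lay between -0.02 and 0.37. Turned, the ratio was -0.73 for 96 h and 0.09 for 72 h, and the mean over both was -0.32 ± 0.58 (SD, n = 2; limma adjusted p = 0.677). Without the 96 h Foxp3-Cy3 array the mean changed sign, to 0.23. Already turned, the mean was 0.59 ± 0.73 (SD, n = 2).

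miR-19a, of the family most tied to the cluster's effect on lymphocyte survival, was read by 2org-19a, at -0.04 (Foxp3-Cy5) and 1.35 (Foxp3-Cy3) at 96 h, and -0.25 and 0.33 in the same order at 72 h. As with 1org-20, both Foxp3-Cy3 arrays were above the Foxp3-Cy5 arrays, and the turned time points overlapped. The turned ratio was below 0 on all 4 arrays, with -0.29 and a spread of only 0.05 (SD between 2 arrays) at 72 h. Its mean was -0.49 ± 0.29 (SD, n = 2; limma adjusted p = 0.589), against 0.34 ± 0.43 (SD, n = 2) in the other reading.

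miR-92a shares its seed with miR-25 and is known for restraining integrins in endothelial cells. Probe 1org-92 had 0.53 (Foxp3-Cy5) and 0.61 (Foxp3-Cy3) at 96 h, and 0.16 and 0.39 in the same order at 72 h. All 4 deposited values were above 0 and the dyes differed little, so the turned mean was near 0 at -0.08 ± 0.05 (SD, n = 2; limma adjusted p = 0.937). Taken as already turned, 1org-92 was the 1 member above 0 on all 4 arrays, at 0.42 ± 0.21 (SD, n = 2), as were 12 of the 171 probes (7.02%).

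In the Cy5-over-Cy3 reading the minor arm of the miR-17 hairpin went the other way from the main arms. The median of the mean ratios of all miRNA probes was also above 0 in that reading, at 0.45. Probe 2org-17-3p had 2.22 (Foxp3-Cy5) and -0.73 (Foxp3-Cy3) at 96 h, and -0.61 and -0.96 in the same order at 72 h. Its 1 value above 0 was on the array where the main arms lay below the miRNA median, and its turned time points overlapped. The turned mean was 0.83 ± 0.92 (SD, n = 2; limma adjusted p = 0.545), ranked 150 from the lowest of 171. In the other reading it was -0.02 ± 1.08 (SD, n = 2), ranked 69. Its root mean square difference from 2org-17-5p, cut from the same hairpin, was 1.66, and from the other main arms 1.33 to 2.14, whereas the 5 main arms differed among themselves by 0.41 to 0.86.

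The profile of 2org-17-3p lay closer than the main arms did to the median of miRNAs which mark other cell types. Those 18 probes (muscle, epithelial, liver, neural, blood and stromal markers) had medians of 2.36 (Foxp3-Cy5) and -0.53 (Foxp3-Cy3) at 96 h, and -1.08 and -1.04 in the same order at 72 h. The root mean square difference of 2org-17-3p from these medians was 0.27, against 1.43 to 2.19 for the main arms. This was not particular to 2org-17-3p, since 2org-32, with the miR-92a seed, was at 0.56, and at 0.28 from the median of all 171 miRNA probes. Probes 1org-106a (1.28) and 1org-106b (1.30) were also nearer than any main arm, and 1org-93 (1.44) and 2org-25 (1.80) were not. How many of the 171 probes lay this close was not counted. The list of 18 was not uniform, since 4 of its probes (1org-200a, 1org-200b, 2org-200c and 1org-206) were above 0 on all 4 arrays. To the median of all 171 miRNA probes 2org-17-3p was also the nearer, at 0.61, against 0.86 to 1.62 for the main arms. From the medians of 5 T cell miRNA probes (1org-142-as, 1org-142-s, 1org-146, 1org-150 and 1org-155) it was 1.27, against 0.60 to 1.14 for the main arms. These 5 were not uniform either, with values from -1.48 to 0.76 on the 72 h Foxp3-Cy3 array. No scanner intensities were used here, so whether 2org-17-3p stood above background is unknown and its part in the result was not tested.

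**Figure D2:**
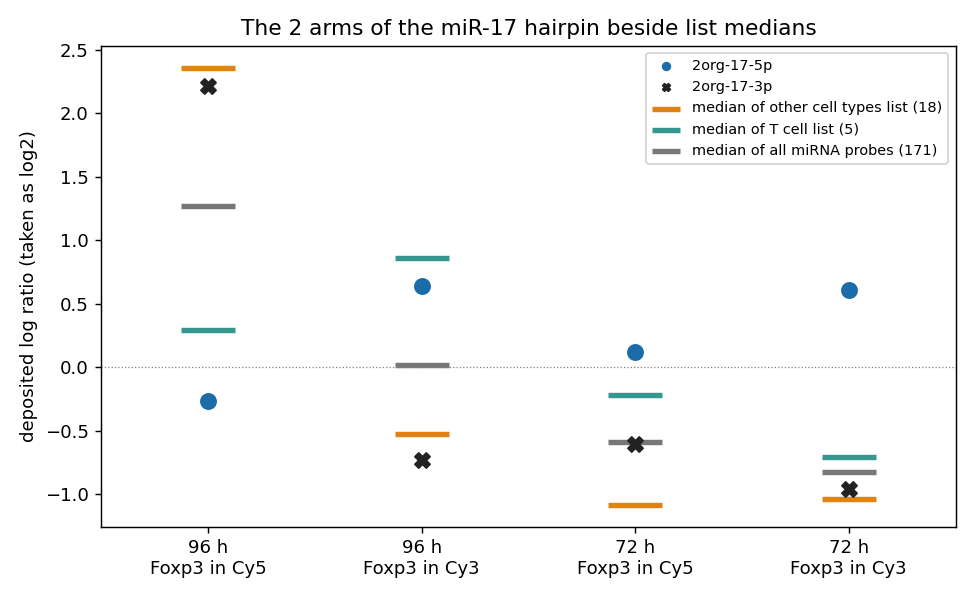
Deposited log ratio (taken as log2) of the 2 arms of the miR-17 hairpin on each array, with bars for the medians of 18 probes for other cell types, 5 T cell probes and all 171 miRNA probes. On the 96 h Foxp3-Cy5 array the 2 arms are at -0.27 and 2.22, and the median of the other cell types is 2.36.

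Over both time points, no member passed an adjusted p of 0.05 in an intercept-only limma fit of the turned ratios, and neither did any of the 171 probes (0%). At an unadjusted p under 0.05 limma gave 0 members and 16 probes (9.36%). All members had a pooled standard error of 0.479, and their adjusted p ran from 0.545 to 0.937. Taken as already turned, limma called 3 probes (1.75%) and no member. Below 0 on all 4 turned arrays were 1org-20 and 2org-19a, 2 of 6 members, against 10 of 171 probes (5.85%). Neither was below 0 on all 4 after each array was centred on its miRNA median or on its U6 and tRNA probes, since on the 72 h Foxp3-Cy5 array they lay above those medians. With the miRNA centring the mean of 1org-20 was -1.24 ± 0.68 (SD, n = 2; limma adjusted p = 0.0607), and limma called 2 probes (1.17%) and no member. Without the 72 h Foxp3-Cy5 array, limma called 1org-20 at -1.17 and 2org-17-3p at 1.22 (adjusted p = 0.0246 for each), as it did 94 of the 171 probes (55%).

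**Figure D3:**
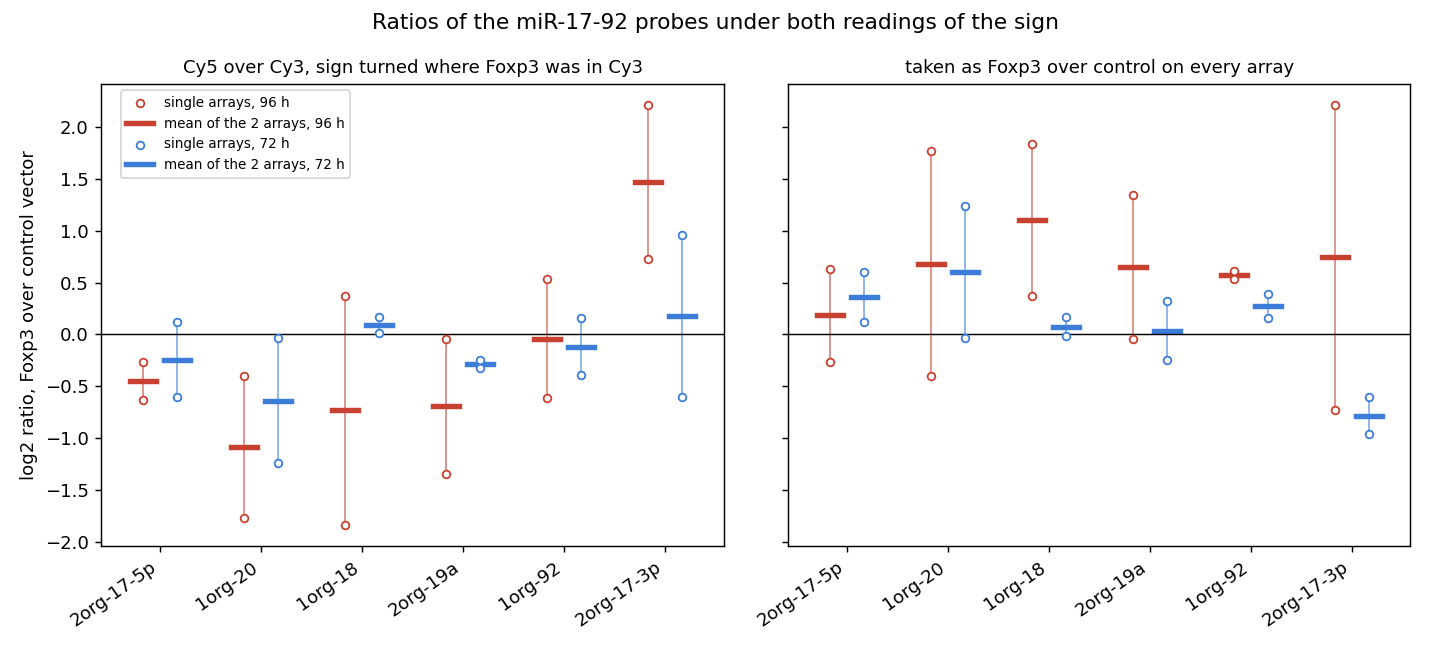
Log2 ratio of Foxp3 over control vector (vertical axis) for the 6 cluster probes at 96 h and 72 h, with open circles for the arrays and thick bars for their mean, in the Cy5-over-Cy3 reading (left) and taken as already turned (right). The means of 1org-20 are -1.09 and -0.64 on the left and 0.68 and 0.60 on the right.

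At 96 h, the members past 1.5-fold with the same sign on both arrays were 1org-20 and 2org-19a below 0, against 9 of 171 probes (5.26%), and 2org-17-3p above 0, against 79 of 171 (46.2%). Their turned log2 means were -1.09, -0.70 and 1.47, values of 1 replicate with no test. The median of the 6 members was -0.57, against 0.80 over all miRNA probes, but taken as already turned the medians were close, at 0.67 and 0.65 in the same order. Each array centred on its miRNA median, all 5 main arms passed below 0, at -1.71 for 1org-20, -1.36 for 1org-18, -1.32 for 2org-19a, -1.07 for 2org-17-5p and -0.66 for 1org-92, as did 43 of 171 probes (25.1%). So did 4 of the 5 probes for miRNAs of other loci with the same seeds. All 5 U6 and tRNA control probes were also below 0 with this centring, with a median of -0.86. With that centring the SD between arrays was 0.01 for 2org-19a, 0.06 for 1org-20, 0.10 for 1org-92 and 0.65 for both 2org-17-5p and 1org-18. Probe 2org-17-3p remained above 0 at 0.85. Centred on U6 and tRNA, 1org-20 alone passed below 0, as did 4 of 171 (2.34%). Taken as already turned, 1org-18 alone passed, above 0 at 1.10, as did 58 of 171 (33.9%). In the Cy5-over-Cy3 reading 1org-20 (below 0) and 2org-17-3p (above 0) passed under all 3 scalings, against 3 of 171 probes (1.75%) below 0 and 29 of 171 (17%) above 0 that did so.

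At 72 h the turned ratios were smaller in size than at 96 h for 5 of the 6 members, 1org-92 being the exception. The range over all 171 miRNA probes was narrower too, from -0.90 to 1.25 at 72 h against -2.12 to 2.33 at 96 h. The share of all probes with smaller ratios was not counted. Of the members, 1org-20 alone passed 1.5-fold with the same sign on both arrays, at a turned log2 mean of -0.64, against 9 of 171 probes below 0 (5.26%). Its 2 arrays stood at -0.03 and -1.24. The median of the 6 members was -0.18, against 0.07 over all miRNA probes, and taken as already turned the order was the opposite, 0.18 for the members against -0.67 over all. Once the miRNA medians were subtracted, none passed, and the 5 main arms had opposite signs on the 2 arrays, with SDs between arrays of 1.05 to 1.85. Taken as already turned and centred, the same 5 passed above 0, from 0.74 for 2org-19a to 1.31 for 1org-20, as did 51 of 171 (29.8%). So did 3 of the 5 probes for miRNAs of other loci with the same seeds. The 5 U6 and tRNA control probes were also all above 0 there, with a median of 0.42. Once centred, both arrays thus gave all 5 main arms 1 sign at 96 h in the Cy5-over-Cy3 reading and at 72 h in the other, and neither reading did so at both time points. As deposited, the already turned reading put 2org-17-3p alone past 1.5-fold at 72 h, below 0 at -0.78, as were 91 of 171 (53.2%).

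Between 96 h and 72 h no member differed by 1.5-fold without overlap of the arrays, against 8 probes higher (4.68%) and 4 lower (2.34%) at 96 h. The largest differences of 96 h minus 72 h were 1.30 for 2org-17-3p and -0.82 for 1org-18, with a limma standard error of 1.42 (adjusted p = 0.99 for each). With 1 replicate at each time point, these p-values rest on the spread between arrays of exchanged dyes alone. That fit called 0 of 171 probes, and 0 at an unadjusted p under 0.05. After centring on the miRNA medians 2org-17-3p was higher at 96 h, as were 23 of 171 (13.5%), and 1org-18 and 2org-19a were lower, as were 18 of 171 (10.5%). Centred on U6 and tRNA, 2org-17-3p was again higher at 96 h, as were 78 of 171 (45.6%), and already turned, 1org-18 was, as were 116 of 171 (67.8%). Already turned and centred, 2org-17-5p and 1org-92 were lower at 96 h, as were 13 of 171 (7.6%), and no member was higher.

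Of 5 probes for miRNAs of other loci with the same seeds, 4 lay below 0 at both time points in the Cy5-over-Cy3 reading (1org-106a, 1org-106b, 1org-93 and 2org-25), as did 4 of the 6 members, against 33 of 171 probes (19.3%). None of the members or related probes was below 0 at both when taken as already turned. Above 0 at both in that reading were 5 of the 6 members and 1 of the 5 related probes (2org-25), against 41 of 171 probes (24%). None of the 5 passed limma. The turned means were -0.09 ± 0.02 for 1org-106a, -0.11 ± 0.05 for 1org-106b, -0.28 ± 0.02 for 1org-93 and -0.39 ± 0.09 for 2org-25 (SD, n = 2). Already turned, they were 0.32 ± 0.64 for 1org-106a, 0.34 ± 0.54 for 1org-106b, 0.26 ± 0.45 for 1org-93 and 0.47 ± 0.09 for 2org-25 (SD, n = 2). Although 1 base separates miR-106a from miR-17-5p, their probes differed by 0.61 (root mean square over the arrays), and 1org-106a lay closer to 1org-106b, at 0.09. Another miR-106 probe, 2org-106, has no letter in its ID and was not counted among the 5. Its turned mean was -0.40 ± 0.17 and, already turned, 0.60 ± 0.36 (SD, n = 2), both farther from 0 than those of 1org-106a. The probe 2org-25, for the miR-106b-25 member with the miR-92a seed, differed by 0.39 from 1org-92 and by 0.21 from 2org-17-5p. Shared seed and near profile thus did not always go together. Probes 1org-20 and 1org-106a, with 1 seed, differed by 0.96, and 2org-32, also a probe with the miR-92a seed, differed from 1org-92 by 1.07. The turned mean of 2org-32 was 0.61 ± 0.43 and, already turned, -0.17 ± 0.92 (SD, n = 2).

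**Figure D4:**
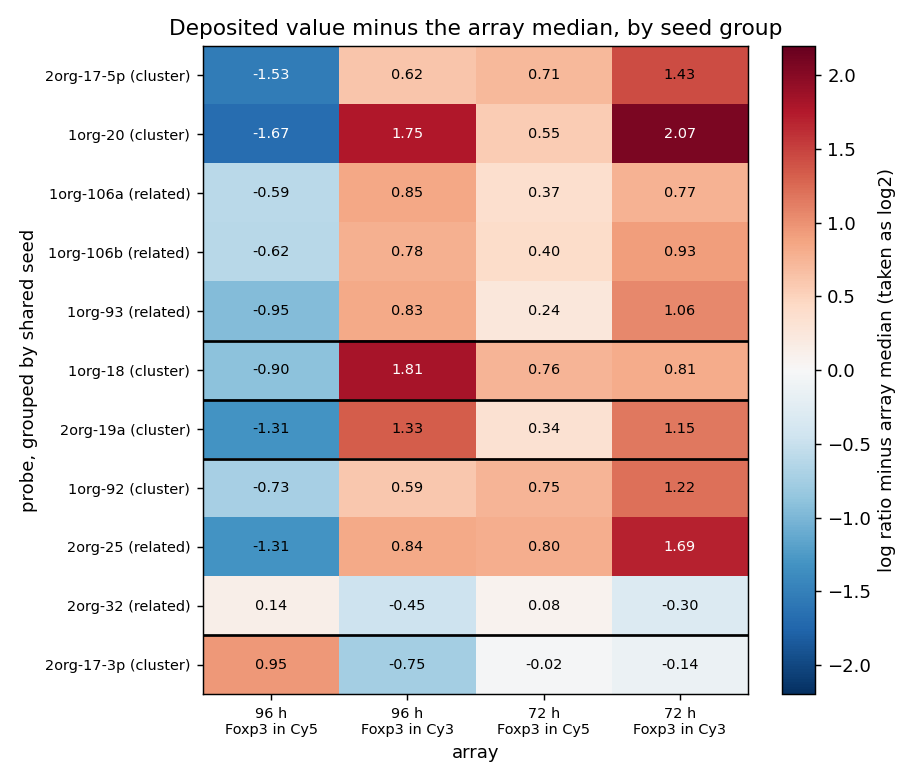
Deposited log ratio minus the array's miRNA median (colour and printed value, taken as log2) for the 6 cluster probes and 5 related probes on each array, with lines between seed groups. All but 2org-32 and 2org-17-3p are above the median on 3 arrays and below it on the 96 h Foxp3-Cy5 array, and 1org-20 has the values farthest from the median in its seed group on 3 of the 4 arrays.

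The probes outside the cluster most like its mean profile, by root mean square difference over the 4 arrays, were 1org-93 (0.15), 1org-103 (0.15), 1org-106b (0.17), 1org-30c (0.17) and 1org-106a (0.22). That mean holds 2org-17-3p, and without it the nearest to the mean of the 5 main arms were 2org-106 (0.17), 1org-34c (0.22), 1org-142-as (0.23), 1org-7a (0.23) and 1org-30c (0.27), so 1org-30c alone was in both sets of 5. This measure does not depend on the centring or on the reading of the sign. The search for neighbours of single members left out the other members. Nearest were 1org-7d to 2org-17-5p (0.13), 1org-34c to 2org-19a (0.10), 2org-34 to 1org-18 (0.20) and 1org-7d* to 1org-92 (0.22). Probe 1org-20 had no near neighbour, with 1org-7a the closest at 0.40. The nearest to 2org-17-3p outside the cluster were 1org-189 (0.19) and 1org-187 (0.26), and the nearest related probe, 2org-32, was at 0.45.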

How the data were processed

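The authors deposited 1 table of log ratios, taken here as log2, with 178 probes and 4 arrays, and 1 value per probe and array. Scanner, background correction, normalization, log base and direction are not given in the sources used here. Groups came from the labels (time point, and the dye of the Foxp3 RNA). Members and lists were chosen with earlier results of these data known. Values were turned to Foxp3 over control as Cy5 over Cy3, and the dye-exchanged arrays of each time point averaged. An intercept-only limma fit (limma 3.58.1, R 4.3.3) over 171 miRNA probes, with Benjamini-Hochberg adjustment, gave adjusted p, so p-values measure only the spread between the time points, which may be technical. The prior degrees of freedom of this fit were infinite, so every probe had the same standard error. The difference of 96 h and 72 h was fitted over the 4 arrays with a time term. The fit was tried on simulated data drawn without array offsets or dye effects, so that trial cannot show how it handles either in these arrays. Alternatives were the other reading of the sign, centring on the miRNA median or on U6 and tRNA, natural logs, a 2-fold threshold, each array left out, a dye term, robust variance, control probes kept, and the members without 17-3p. Named beside the members were the probes of related clusters and seeds and, by smallest root mean square difference, 5 other probes for the cluster and up to 2 for each member; profiles over marker lists, the nearest probes to the main arms alone, the count under all 3 scalings and the pattern around array medians were added after the data were seen. The number of arrays limits the precision.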

Additional observations from a re-analysis of the deposited data

How the results depend on the processing

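Taken as already turned, the median of the members was 0.67 at 96 h and 0.18 at 72 h, and the means were 0.27 for 2org-17-5p, 0.64 for 1org-20, 0.59 for 1org-18, 0.34 for 2org-19a, 0.42 for 1org-92 and -0.02 for 2org-17-3p, each of opposite sign to the Cy5-over-Cy3 reading. That reading left 0 members below 0 on all arrays and put 1 above 0 on all, 0 past 1.5-fold below 0 at 96 h, and 1 higher at 96 h than at 72 h without overlap. Centred on the miRNA median, 0 members were below 0 on all arrays, 5 passed 1.5-fold below 0 at 96 h and 0 at 72 h, and 1 was higher and 2 were lower at 96 h without overlap. Centred on U6 and tRNA, these counts were 0, 1, 0, 1 and 0, and the mean of 1org-92 was 0.067. With a 2-fold threshold, 1 member passed below 0 at 96 h and 0 at 72 h. Without 2org-17-3p, 0 passed above 0 at 96 h. Leaving out each array in turn, 2 to 3 members were below 0 and 0 to 1 above 0 on every remaining array. Then 0 to 5 passed below 0 at 96 h, and 1 to 2 passed below 0 and 0 to 1 above 0 at 72 h. Without overlap, 0 to 2 were higher and 0 to 3 lower at 96 h. The median ran from -0.991 to 0.163 at 96 h and from -0.36 to 0.042 at 72 h. The mean ran from -0.87 to 0.23 for 1org-18, -0.37 to 0.21 for 1org-92, -1.21 to -0.52 for 1org-20, -0.53 to -0.17 for 2org-17-5p, -0.82 to -0.17 for 2org-19a and 0.43 to 1.22 for 2org-17-3p. The cause of these changes was not tested. A dye term, robust variance and control probes in the fit left limma at 0 members, and natural logs moved 1 count, that of members below 0 past 1.5-fold at 96 h, to 3. For the arrays left out, the 2-fold threshold and natural logs, no shares over the 171 miRNA probes are given here. Those counts show only how the member counts moved, and nothing particular to the members. Foxp3 and control RNA were paired within each array by its ratio. No pairing of arrays across the time points was possible because the replicate numbers only name the dye orientation within a time point.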
